A study of Sus scrofa with 12 samples.

Results

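Complex I (NADH:ubiquinone oxidoreductase) is the first enzyme of the mitochondrial respiratory chain, and its nuclear-encoded subunits were followed here in loin muscle of pigs that differ in meat toughness. The members are the protein-coding genes of the Sscrofa11.1 annotation whose symbol begins with NDUFA, NDUFB, NDUFC, NDUFS or NDUFV, without the assembly factors named NDUFAF. This rule, which used no measured value, found 39 of 28224 annotated genes. RNA was sequenced from the *Longissimus dorsi* muscle of 12 castrated male Iberian pigs of 1 purebred line, fattened outdoors on acorns and grass and slaughtered at a similar age, with 1 library per animal. The Tough group holds 6 animals with high estimated breeding values for shear force, the force needed to cut cooked meat (breeding values from 1.76 to 2.40, shear force from 7.32 to 10.63 kg/cm2). The Tender group holds 6 animals with low ones (breeding values from -1.09 to -0.98, shear force from 2.18 to 3.43 kg/cm2). The animals were chosen for these extremes and no treatment was given, so breeding value and muscle toughness change together between the groups. The authors also reported less intramuscular fat in the tougher group, in groups that included these animals, so fat content changes with them too.

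As background, complex I passes electrons from NADH to ubiquinone and pumps protons across the inner mitochondrial membrane. Its N module takes up NADH, its Q module reduces ubiquinone, and the proximal and distal parts of the membrane arm hold the proton channels. The channel subunits themselves (ND genes) are encoded by mitochondrial DNA and were not analysed here, so all values concern the nuclear part. Slow, oxidative muscle fibres are rich in mitochondria, and fast, glycolytic fibres are poorer in them. In bulk muscle, fewer fibres of a type and less RNA per fibre cannot be told apart.

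The nuclear regulators of respiratory genes known in mammals bind close to the start of transcription, and the letters of 5 of their motifs were searched from 250 bases before to 50 bases after each annotated start, on both strands. The palindromic motif of NRF1, spelled out by the capitals in the first pair of sequences printed here, was found in 3 of the 39 subunit promoters (7.69%), against 1.12% of 19572 promoters of annotated genes. AAGATGGC, the motif of YY1, was found in 5 of them (12.8%), against 2.48% of all. CCGGAAG, bound by ETS factors such as GABPA, was found in 7 (17.9%), against 10.99%, and GGGGCGGG of SP1 in 10 (25.6%), against 28.2%. TCAAGGTCA of the oestrogen-related receptors was found in none, against 0.358% of all. These are matches of letters, with no measure of binding. The 4 sequences printed here, of 150 bases each and ending at the base before the annotated start, show where the NRF1 motif (NDUFB4, NDUFS6) and the ETS motif (NDUFS1, NDUFV1) lie in genes whose levels are given later. They were read from the Sscrofa11.1 genome, all on the minus strand, and capitals mark motif letters (in NDUFS1 also the SP1 motif, on the opposite strand):
NDUFB4, chr13:139730493-139730642: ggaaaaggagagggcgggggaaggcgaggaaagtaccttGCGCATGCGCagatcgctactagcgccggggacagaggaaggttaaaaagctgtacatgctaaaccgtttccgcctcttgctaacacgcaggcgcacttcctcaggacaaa
NDUFS6, chr16:79000002-79000151: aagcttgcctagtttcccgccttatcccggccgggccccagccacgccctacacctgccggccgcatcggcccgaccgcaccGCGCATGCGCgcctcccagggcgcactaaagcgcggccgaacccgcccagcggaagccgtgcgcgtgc
NDUFS1, chr15:109451814-109451963: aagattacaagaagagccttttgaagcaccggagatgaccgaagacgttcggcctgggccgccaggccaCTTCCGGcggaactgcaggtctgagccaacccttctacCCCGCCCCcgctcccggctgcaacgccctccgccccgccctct
NDUFV1, chr2:4964212-4964361: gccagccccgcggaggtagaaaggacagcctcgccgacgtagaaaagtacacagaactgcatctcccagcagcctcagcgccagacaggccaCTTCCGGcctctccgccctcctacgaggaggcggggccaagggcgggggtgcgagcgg
The NRF1 letters begin 111 bases before the start of *NDUFB4* and 68 before that of *NDUFS6*. The ETS letters begin 81 bases before the start of *NDUFS1* and 58 before that of *NDUFV1*, both as the reverse complement.

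The files give the level of each assembled transcript in FPKM, a count of fragments scaled to transcript length and to the mapped reads of the library. A gene's level is the summed FPKM of the transcripts assigned to it, those with at least 50% of their exonic bases in the gene, scaled to the exon length of the gene. A second measure, per exon base, counts the part of every transcript on the gene's strand that lies in its exons. The assemblies held 27849 to 30246 transcripts per Tough library and 25798 to 31353 per Tender library. One FPKM stood for a read coverage of 6.87 to 10.2 in the Tough libraries and of 6.55 to 8.36 in the Tender libraries, and no counting error is given because read counts were not part of the data used. Markers of skeletal muscle were high throughout, with means of 10535 and 9240 FPKM in Tough and Tender for *MYLPF*, the fast myosin light chain, and of 964 and 1213 FPKM for *MYH7*, the slow myosin heavy chain.

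No complex I subunit gene passed the test between Tough and Tender loins. Of the 39 genes, 38 had a mean above 0.5 FPKM and were tested, and 0 were called by limma, which needed a p up to 0.05, an adjusted p up to 0.10 and a 1.5-fold difference, where 0% of all 9022 tested genes were called. At an unadjusted p of at most 0.05, 0 of the 38 passed, against 2.5% of all tested genes (0.72% higher and 1.78% lower in Tough). That split of all genes also moved with scaling: 65 of 226 were higher in Tough as deposited, 134 of 279 with median-of-ratios scaling and 144 of 291 with quantile normalization. The smallest adjusted p among the 38, by limma with Benjamini-Hochberg adjustment, was 1.00. By the exact Wilcoxon test 0 of them passed at an unadjusted p of 0.05 too. The groups overlapped for all 38, where they did not overlap for 0.0998% of tested genes. In 29 of the 38 the log2 fold change of Tough over Tender was below 0, against 60.3% of all tested genes, with a median of -0.11 against -0.04. This lean depended on the scaling between libraries: 25 of 38 were below 0 with median-of-ratios scaling (median -0.07) and 19 of 38 with quantile normalization (median -0.0016). Of all tested genes, 50.3% were below 0 with median-of-ratios scaling and 49.6% with quantile normalization.

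**Figure D1:**
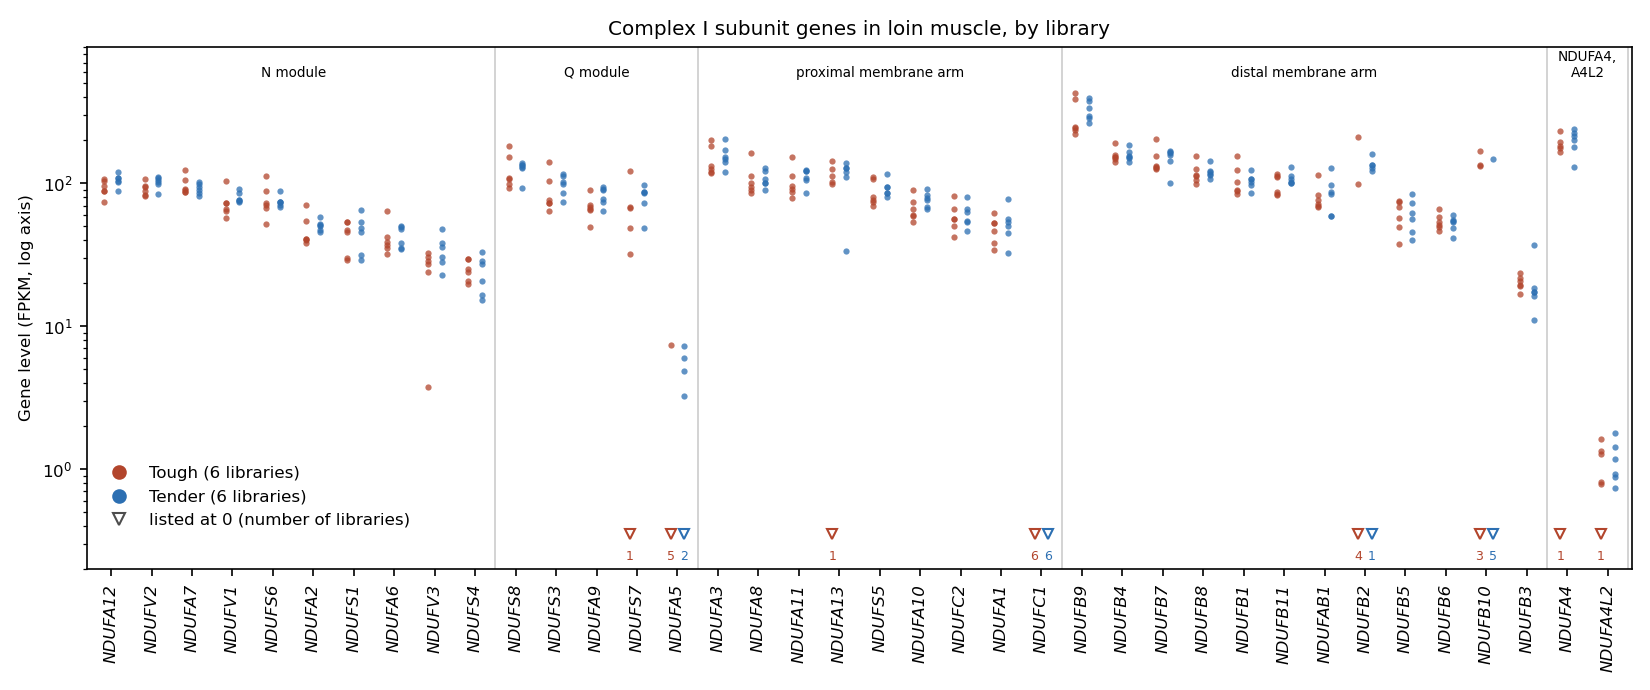
Level of 38 of the genes in FPKM (log axis) in the 6 Tough libraries (red, left) and the 6 Tender libraries (blue, right), ordered by module and mean. Open triangles give the number of libraries where a gene is listed at 0, and the 2 groups overlap for every gene shown.

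The intervals were narrow for most of the genes. Among the 31 genes with a value in every library, 23 were lower and 8 higher in Tough, with a median log2 fold change of -0.06, against -0.04 and 61.2% lower among the 7939 genes measured in every library. For 26 of the 31, the 95% interval of the difference lay wholly within a 1.5-fold change either way. Apart from *NDUFV3*, no difference among the 31 was larger than 0.27 on the log2 scale. Of the 31, 1 (*NDUFV3*) passed a 1.5-fold difference, against 1.52% of the 7939 genes. Of all 38 tested members 7 did, 6 of them listed at 0 in some library, against 6.87% of all tested genes.

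**Figure D2:**
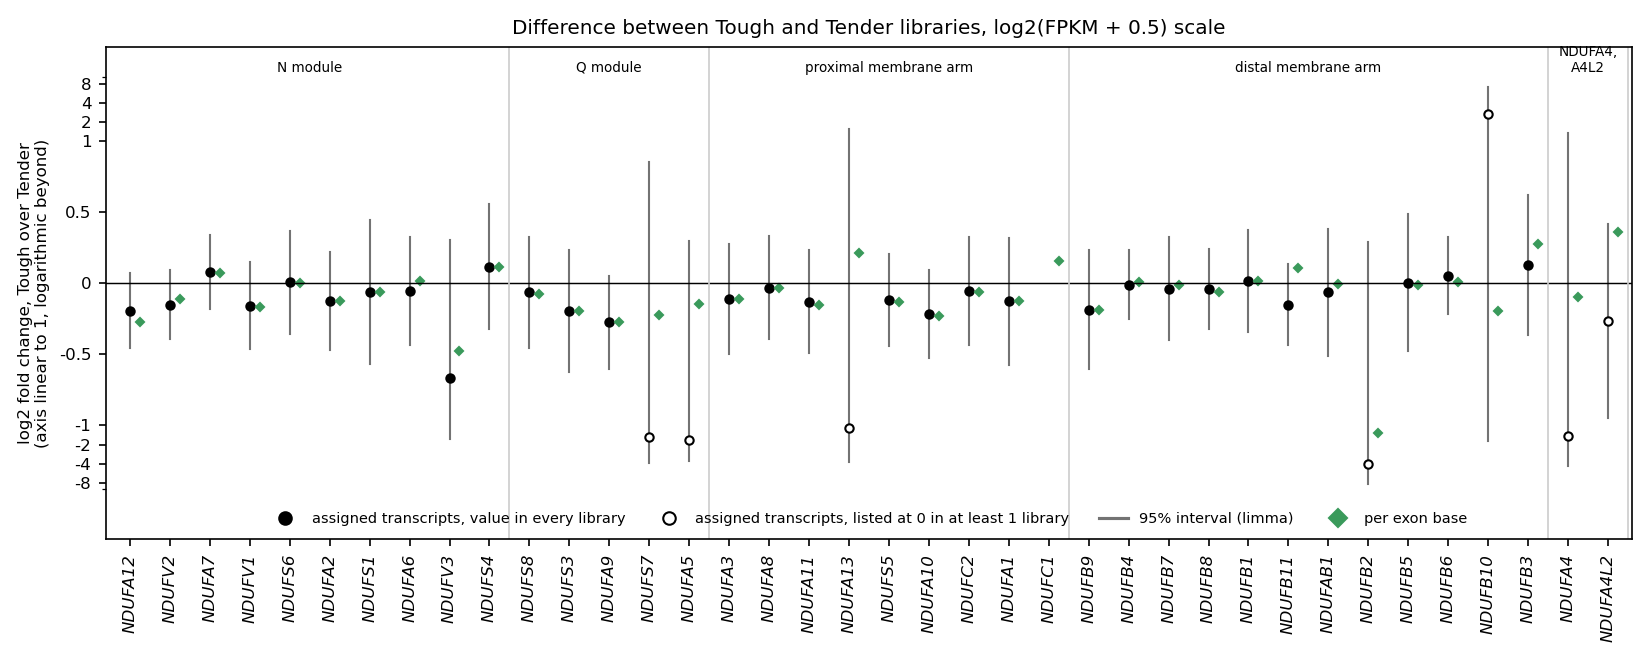
Log2 fold change of Tough over Tender for the same 38 genes (circles, log2(FPKM + 0.5) scale) with its 95% interval, and the same per exon base (green diamonds); the axis is linear to 1 and logarithmic beyond. Filled circles lie between -0.27 and 0.13 except *NDUFV3* at -0.66, and the long intervals belong to genes listed at 0 in at least 1 library.

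The levels of the subunits differed more between genes than between groups. Levels are scaled to the annotated exon length, so a gene whose assembled transcripts cover little of it is given lower than its transcripts: *NDUFA5* had transcripts of 16.5 to 54.2 FPKM that covered a median of 13.1% of its exons, *NDUFS4* had 41.2 to 91.3 FPKM over 36.4%, and *NDUFV3* and *NDUFA4* were covered to 28.4% and 45.9%. The 31 genes had means from 20.0 FPKM (*NDUFB3*) to 311 FPKM (*NDUFB9*), with a median of 89.6 FPKM, and 21 of them had means between 10 and 100 FPKM. *NDUFB9*, an accessory subunit of the distal membrane arm, had from 220 to 429 FPKM in Tough (median 247) and from 266 to 398 FPKM in Tender (median 316). *NDUFB4*, of the same arm, had from 141 to 191 FPKM in Tough (median 154) and from 142 to 187 FPKM in Tender (median 154). *NDUFA4*, listed at 0 in 1 library, had a mean of 179 FPKM over the 12 libraries. These 3 genes had the highest means of the 39 on assigned transcripts. Per exon base *NDUFA4* had means of 111 FPKM in Tough and 121 FPKM in Tender, below *NDUFA3* with 147 and 157 FPKM. The lowest were *NDUFC1* (0), *NDUFA4L2* (1.07 FPKM) and *NDUFA5* (2.41 FPKM), all listed at 0 in at least 1 library.

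In the N module, *NDUFV1* carries the flavin that accepts electrons from NADH, and *NDUFV2* and *NDUFS1* carry iron-sulphur clusters that lead them on. *NDUFV1* had from 56.9 to 103 FPKM in Tough (median 69.5) and from 73.8 to 91.6 FPKM in Tender (median 76.7), a log2 fold change of -0.16 ± 0.14 (SE; exact permutation p = 0.251, two-sided). *NDUFV2* had from 81.1 to 107 FPKM in Tough (median 91.7) and from 84.6 to 112 FPKM in Tender (median 104), with -0.15 ± 0.11 (exact permutation p = 0.104). *NDUFS1* had from 29.3 to 53.8 FPKM in Tough (median 46.6) and from 28.9 to 65.3 FPKM in Tender (median 46.9), with -0.06 ± 0.23 (exact permutation p = 0.786). Its groups covered almost the same range. Of the accessory subunits of this module, *NDUFA12* had from 74.4 to 107 FPKM in Tough (median 91.9) and from 88.5 to 120 FPKM in Tender (median 107), with -0.19 ± 0.12 (exact permutation p = 0.0779). *NDUFS4*, needed in mammals for a stable N module, had from 19.9 to 29.7 FPKM in Tough (median 24.6) and from 15.2 to 33.1 FPKM in Tender (median 24.0), with 0.12 ± 0.20. *NDUFA7* had from 86.8 to 124 FPKM in Tough (median 90.6) and from 82.0 to 102 FPKM in Tender (median 91.7), with 0.08 ± 0.12. Over the 10 genes of the module, 7 were lower and 3 higher in Tough, with a median of -0.09.

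*NDUFV3*, an accessory subunit beside the flavin site, had the widest difference of the genes with a value in every library. It had 3.78, 24.0, 27.5, 32.8, 30.5 and 28.7 FPKM in Tough 1 to 6, and 28.3, 38.0, 35.7, 22.9, 48.1 and 30.3 FPKM in Tender 1 to 6. Tough 1 stood below all others and the remaining libraries overlapped. The log2 fold change was -0.66 ± 0.45 (exact permutation p = 0.143). Per exon base Tough 1 had 13.9 FPKM, and the difference was -0.47 (exact permutation p = 0.0584, limma p = 0.0444 unadjusted, not called). Without Tough 1, the difference on assigned transcripts was -0.20. In Tough 1 the longer transcripts over the gene (28.2 and 4.94 FPKM, with 32.2% and 33.0% of their bases in it) were not assigned, and a piece of 137 bases made up the 3.78 FPKM.

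In the Q module, *NDUFS3*, *NDUFS7* and *NDUFS8* belong to the arm that leads electrons to ubiquinone, with *NDUFS7* and *NDUFS8* holding its last iron-sulphur clusters. *NDUFS3* had from 63.8 to 141 FPKM in Tough (median 75.01) and from 74.6 to 117 FPKM in Tender (median 100.7), with a log2 fold change of -0.19 ± 0.20. *NDUFS8* had from 93.2 to 182 FPKM in Tough (median 108) and from 93.2 to 140 FPKM in Tender (median 132), with -0.06 ± 0.18. The groups overlapped in both. *NDUFA9*, which sits at the joint of the Q module and the membrane arm, had the smallest limma p of the genes with a value in every library, and *NDUFA12* the smallest exact permutation p. *NDUFA9* had from 49.7 to 89.9 FPKM in Tough (median 67.3) and from 64.3 to 95.01 FPKM in Tender (median 83.9), with -0.27 ± 0.15 (95% interval from -0.60 to 0.06, limma p = 0.0957, exact permutation p = 0.0823).

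In the membrane arm, *NDUFA10*, a subunit of the proximal part related to nucleoside kinases, had from 53.5 to 90.2 FPKM in Tough (median 63.2) and from 65.7 to 91.2 FPKM in Tender (median 78.0), with a log2 fold change of -0.21 ± 0.14 (exact permutation p = 0.130). In the proximal part, 8 of 8 tested genes were lower in Tough, against 60.3% of all tested genes, with a median of -0.12. None passed the test. Among these 8, *NDUFA13*, listed at 0 in 1 library, was higher in Tough per exon base (0.21). With quantile normalization *NDUFA3*, *NDUFA8* and *NDUFC2* were above 0. *NDUFB3*, in the distal part, had from 16.8 to 23.5 FPKM in Tough (median 20.1) and from 11.14 to 37.2 FPKM in Tender (median 17.4), with 0.13 ± 0.23. Its highest and lowest value were both in Tender libraries. *NDUFB6* had from 46.7 to 66.6 FPKM in Tough (median 52.4) and from 41.3 to 60.4 FPKM in Tender (median 54.0), with 0.06 ± 0.13. Of the 12 genes of the distal part, 7 were lower and 5 higher in Tough, with a median of -0.02.

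For 8 of the 39 genes at least 1 library is listed at 0, and there the level follows the form of the assembled transcript. *NDUFB2*, of the distal membrane arm, had 212, 0, 99.0, 0, 0 and 0 FPKM in Tough 1 to 6, and 129, 134, 133, 123, 161 and 0 FPKM in Tender 1 to 6. Of the 5 libraries at 0, 4 were Tough, and the fitted log2 fold change was -4.01 ± 1.98 (limma p = 0.0650, exact permutation p = 0.167). In the 7 other libraries the transcript had a median length of 420 bases, with 90.7% of it in the gene. In these 5 the assembled transcript had a median length of 2397 bases, held 100% of the exons of the gene and ran a median of 2888 bases past its end, so that 18.1% of it lay in the gene. Its level, which is an average over the whole longer transcript, was from 11.8 to 29.2 FPKM per exon base, against 90.2 to 192 in the 7 others. Per exon base, the difference was -1.34 (exact permutation p = 0.145). A fall in *NDUFB2* and a longer assembled transcript cannot be told apart in these files.

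*NDUFB10*, also of the distal arm, was at 0 in 8 libraries, 3 Tough and 5 Tender. It had 0, 0, 135, 168, 0 and 132 FPKM in Tough 1 to 6, and 148, 0, 0, 0, 0 and 0 FPKM in Tender 1 to 6, a fitted log2 fold change of 2.72 ± 2.06. Per exon base its levels were from 93.4 to 127 FPKM in Tough and from 94.0 to 148 FPKM in Tender, and the difference was -0.19, opposite in sign (exact permutation p = 0.147). *NDUFA5*, of the Q module, was at 0 in 7 libraries, 5 of them Tough, with 7.42 FPKM in Tough 3 and 4.90, 3.27, 7.33 and 6.04 FPKM in Tender 1, 2, 3 and 6. The fitted log2 fold change was -1.67 ± 0.91 (limma p = 0.0897, exact permutation p = 0.242). Per exon base it was -0.14, with levels from 3.91 to 7.41 FPKM in Tough and from 3.27 to 11.4 FPKM in Tender. *NDUFC1*, of the proximal arm, was at 0 in all 12 libraries and was not tested. The transcripts over it had a median length of 5270.5 bases with 7.8% in the gene, and per exon base it had from 10.3 to 38.1 FPKM in Tough and from 7.10 to 19.2 FPKM in Tender.

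**Figure D3:**
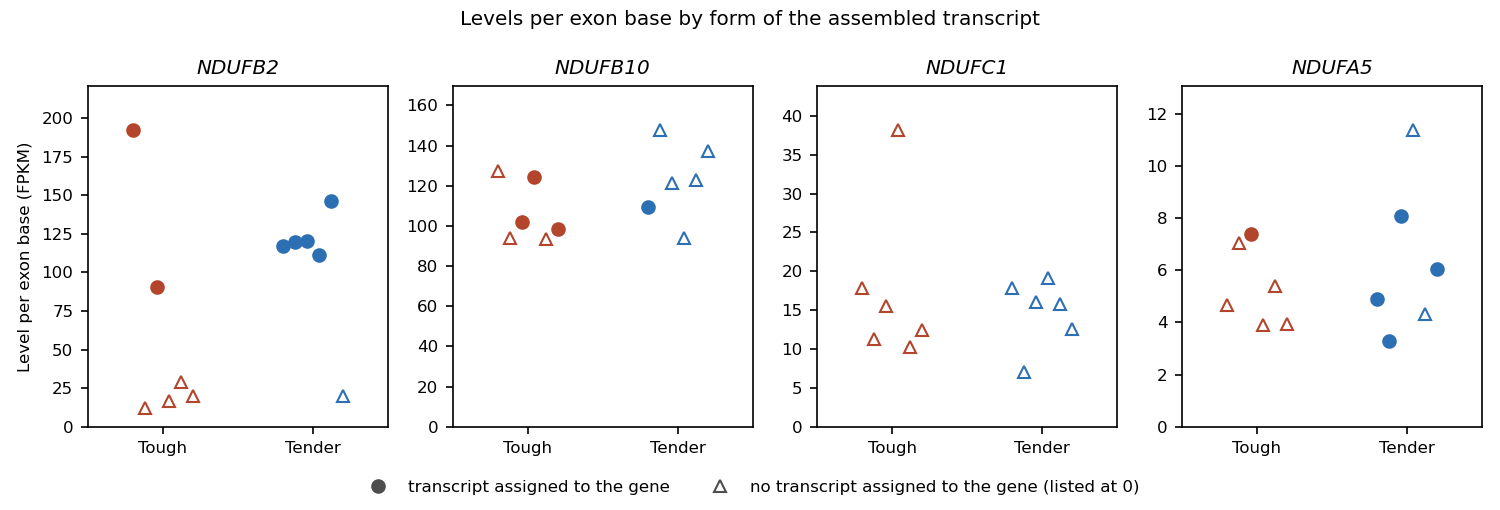
Level per exon base (FPKM) of 4 genes in the 6 Tough (left, red) and the 6 Tender libraries (right, blue); filled circles are libraries with a transcript assigned to the gene, open triangles those where the gene is listed at 0. For *NDUFB2* the triangles lie at 11.8 to 29.2 FPKM and the circles at 90.2 to 192 FPKM, while for *NDUFB10* both lie between 93.4 and 148 FPKM.

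The other 4 genes were each at 0 in 1 library, always a Tough one. *NDUFS7* was at 0 in Tough 5 and otherwise had from 32.1 to 122 FPKM in Tough and from 48.4 to 98.1 FPKM in Tender. Per exon base the difference was -0.22 (exact permutation p = 0.398). *NDUFA13*, known also as GRIM-19, was at 0 in Tough 1, with up to 144 FPKM in the other Tough libraries and from 33.4 to 140 FPKM in Tender. Its difference of -1.11 ± 1.22 became 0.21 per exon base. *NDUFA4*, first counted with complex I and now placed with cytochrome c oxidase, was at 0 in Tough 5, with up to 232 FPKM in the other Tough libraries and from 129 to 239 FPKM in Tender. Its difference of -1.47 ± 1.30 became -0.10 per exon base. In the library at 0, the highest transcript over *NDUFS7*, *NDUFA13* and *NDUFA4* had 47.7%, 48.7% and 47.4% of its bases in the gene. This is little under the 50% needed, and these transcripts had 36.3, 71.5 and 186 FPKM. A copy of *NDUFA4* is annotated as a pseudogene on chromosome 13, so reads could be split between them. *NDUFA4L2*, its paralogue and a hypoxia-induced gene in other mammals, was at 0 in Tough 6. It had up to 1.64 FPKM in the other Tough libraries and from 0.736 to 1.79 FPKM in Tender. In Tough 6 a transcript of 101 FPKM, assigned to *STAC3*, had 36.1% of its bases in *NDUFA4L2*. Per exon base Tough 6 was therefore the highest of all libraries for this gene. Its difference of -0.27 ± 0.31 became 0.36 per exon base (exact permutation p = 0.842), a change of sign that goes with this transcript in Tough 6. Apart from values at 0, 8 genes differed over 1.5 times between the measures in at least 1 library, most often *NDUFA4*, in 10 of 12 libraries (239 FPKM in Tender 6, and 129 per exon base). Others were *NDUFA6* in Tender 4 (49.7 FPKM, and 26.7 per exon base), *NDUFA11* in Tender 6 (122 and 80.6) and *NDUFB11* in Tender 3 (131 and 86.7). Exons of *NDUFB11* share 55.1% of their bases with *RBM10* on the opposite strand, and those of *NDUFA1* share 30.2% with *RNF113A*. The kit as named does not state whether it marks strand, so reads of these pairs may not be told apart.

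The subunits varied together from animal to animal. Over the 12 libraries, the median correlation between pairs of the 31 genes was 0.49 on the log2(FPKM + 0.5) scale, and 0.51 within groups, against 0.18 for pairs of all 7939 genes measured in every library. These points share library, depth and base composition. The correlation with the mean of the others was highest for *NDUFS3* (0.91) and lowest for *NDUFV3* (-0.58), *NDUFB3* (-0.06) and *NDUFS4* (0.03). Single libraries held many of the extreme values. Tough 1 held the highest value of 17 of the 31 genes and Tough 6 the lowest of 14, which is 54.8% and 45.2% of them. Of the 7939 genes, 18.0% were highest in Tough 1 and 23.8% lowest in Tough 6. Other parts of the chain shared much of this, by their summed levels per exon base. ATP synthase was highest in Tough 1 (3174 FPKM) and lowest in Tough 6 (1750 FPKM), as was complex IV (1265 and 649 FPKM). Complexes II and III were also lowest in Tough 6 (309 and 129 FPKM), but highest in Tender 4 (491 and 378 FPKM). Tender 4 held the highest value of 6 of the 31 (19.4%), against 36.3% of the 7939 genes. The median of the 7939 genes deviated by 0.12 in Tough 1, -0.21 in Tough 6 and 0.27 in Tender 4 (log2). The SD of the FPKM was larger in Tough, the group that holds both Tough 1 and Tough 6, for 24 of the 31 genes. The share over all genes is not given here.

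Members of high and low GC content moved apart in some libraries. The 31 genes were split at the median exon GC of 53.0% into 16 of lower and 15 of higher GC. The mean of the lower-GC genes minus that of the higher-GC genes, as mean log2 deviation from each gene's own mean, was 0.05, 0.21, 0.27, -0.25, -0.0044 and -0.0093 in Tough 1 to 6, and 0.02, -0.29, -0.37, 0.52, -0.13 and -0.01 in Tender 1 to 6. Both groups held libraries of either sign. The ratio of *NDUFS8* (exon GC 64.4%) to *NDUFS1* (43.9%), of 1 complex, was from 1.73 to 5.18 in Tough and from 1.43 to 4.45 in Tender. The slope on GC of the 7939 genes measured in every library was -0.28 (log2 per 10 points of GC) in Tender 4. There the lower-GC members were the higher set. It was 0.22 in Tender 2, where they were the lower set. The slope and the lower-GC minus higher-GC difference had opposite signs, as in these libraries, in 9 of the 12. Tough 1 was among the exceptions, with a slope of 0.18 and a difference of 0.05, which was -0.16 with *NDUFV3* not counted. With a GC curve removed from each library, 25 of 38 genes were below 0 (50.1% of all tested genes), with a median of -0.06 and 0 at an unadjusted p of 0.05.

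**Figure D4:**
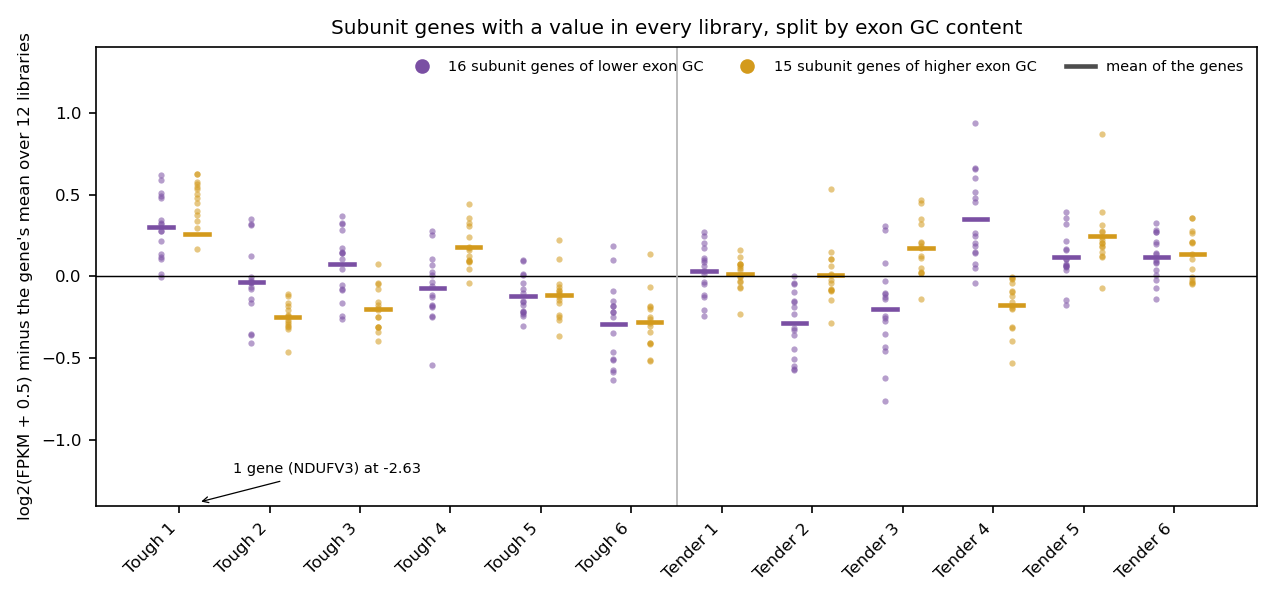
Deviation of each of the 31 genes from its own mean over the 12 libraries (log2), in Tough 1 to 6 (left) and Tender 1 to 6 (right), for 16 genes of lower exon GC (purple) and 15 of higher exon GC (orange), with the mean of each set as a bar. The sets lie farthest apart in Tender 4, by 0.52, and *NDUFV3* in Tough 1 lies below the axis at -2.63.

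Summed over the 39 genes, the level was 3190 ± 608 FPKM in Tough and 3431 ± 252 FPKM in Tender (SD, n = 6 each), and per exon base 3147 ± 618 and 3337 ± 206 FPKM. Per exon base, the Tough sums ran from 2662 to 4307 FPKM and the Tender sums from 3031 to 3619 FPKM, so the groups overlapped, with Tough 1 highest. Per module, on assigned transcripts, the sums were 614 ± 78.9 and 651 ± 47.0 FPKM (N), 438 ± 121 and 486 ± 39.9 FPKM (Q), 715 ± 111 and 769 ± 90.1 FPKM (proximal arm), and 1264 ± 277 and 1326 ± 117 FPKM (distal arm) in Tough and Tender. Per exon base they were 599 ± 86.2 and 636 ± 48.1 FPKM (N), and 448 ± 123 and 479 ± 39.2 FPKM (Q). For the arms they were 707 ± 120 and 736 ± 64.8 FPKM (proximal), and 1277 ± 289 and 1363 ± 85.0 FPKM (distal).

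The other genes of the pathway were taken from lists of the chain's complexes. Of 15 tested assembly factors of complex I, 11 were lower in Tough, with a median log2 fold change of -0.07 and 0 at an unadjusted p of 0.05. Among all tested genes 60.3% were lower, with a median of -0.04. Of the assembly factors, *ECSIT* (2.16 ± 1.36), *FOXRED1* and *TMEM126B* were listed at 0 in 2, 2 and 11 libraries. Of complex II, 3 of 4 tested genes were lower (median -0.05), of complex III 2 of 2 (-0.76), of complex IV 3 of 5 (-0.06), and of ATP synthase 11 of 15 (-0.12), with 0 at that p in each. Few genes of complexes III and IV had a symbol and a level here, and *UQCRB* (-1.29 ± 1.85) of complex III and *COX7C* and *COX7A1* of complex IV were listed at 0 in 3, 7 and 4 libraries. Of ATP synthase, *ATP5G1* and *ATP5G3* were each at 0 in 1 library. Of 5 tested regulators, *PPARGC1A*, a coactivator of mitochondrial genes, averaged 0.931 FPKM in Tough and 2.00 FPKM in Tender (log2 fold change -0.70). Its relative *PPARGC1B* averaged 1.31 FPKM in Tough and 0.703 FPKM in Tender (log2 fold change 0.56). Both passed an unadjusted p of 0.05 by limma and neither was called, with adjusted p = 1.00 for each.

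Markers of fibre types and other cells are given beside the complex I values, and none was called by limma. Of 10 slow fibre genes, 10 were lower in Tough (median -0.43), 3 of them at an unadjusted p of 0.05 (*MYL2*, *CASQ2* and *MYOZ2*), and their sum per exon base ran from 4038 to 8210 FPKM in Tough and from 6401 to 11017 FPKM in Tender. Of 11 fast fibre genes, 9 were higher in Tough (median 0.20) and none passed that p. The 9 include *TNNC2* (4.54 ± 2.71) and *TNNI2* (4.45 ± 3.37), which were listed at 0 in 2 and 4 libraries. *CASQ1* was listed at 0 in 4 libraries. Of 5 red blood cell genes, 3 were tested and 3 were lower in Tough at an unadjusted p of 0.05. Their sum was from 125 to 208 FPKM in Tough and from 240 to 355 FPKM in Tender on assigned transcripts, with *SLC4A1* at 0 in all libraries. *HBB* did not overlap between the groups (124 to 206 FPKM in Tough, 237 to 349 FPKM in Tender; log2 fold change -0.85, limma adjusted p = 0.777). Of the other lists, fibroblast genes were higher in Tough in 6 of 6 (median 0.32), endothelial genes lower in 5 of 5 (-0.24), macrophage genes lower in 7 of 8 (-0.44, with *CD14* at an unadjusted p of 0.05) and adipocyte genes lower in 3 of 5 (-0.06). *CD14* averaged 0.374 FPKM in Tough and 1.64 FPKM in Tender and was at 0 in 2 libraries. Of the other macrophage genes, *CD68* was at 0 in 8 libraries and *AIF1* in 1. The part of other cells and fibre types in the complex I values was not tested.

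**Figure D5:**
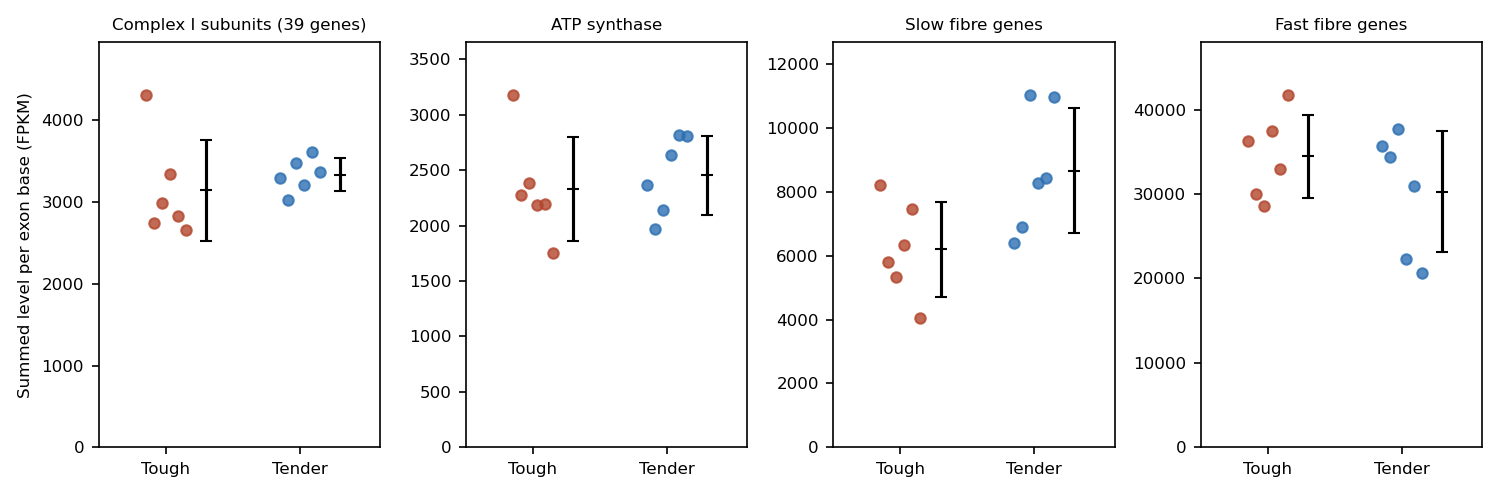
Summed level per exon base (FPKM) of the 39 complex I subunits, ATP synthase, slow fibre genes and fast fibre genes in each of the 6 Tough (left, red) and 6 Tender libraries (right, blue), with mean and SD. The complex I sums overlap, from 2662 to 4307 FPKM in Tough and from 3031 to 3619 FPKM in Tender.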

How the data were processed

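RNA from 12 loins was analysed, 1 library per animal. The deposited values are transcript FPKM, which the authors computed with Cufflinks 2.2.1 from reads trimmed by Trim Galore and aligned by TopHat 2.1.0 (genome build Sscrofa11.1). Read counts and mitochondrial genes were not analysed here.

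Transcripts were matched by strand to the NCBI annotation (Release 106) of the same build, and those without a strand, or with under 50% of their exonic bases in a gene, were left out. The test took genes averaging over 0.5 FPKM, as log2(FPKM + 0.5), so folds of low genes are understated, with limma 3.58.1 in R 4.3.3 (trend, group only, Benjamini-Hochberg over all 9022 genes). Single genes also had an exact permutation test over 924 regroupings (smallest p 0.00216). The test was tried on simulated data. Named genes are the core subunits, the 5 of smallest p in each direction, the 3 highest and 3 lowest means, and those at 0 or differing over 1.5 times between measures. Counts and sums cover all members, and values of 1 gene are not reported here. Members and lists were chosen with earlier results of these data known. Replicates are separate animals. Which batch and lane each animal belonged to was not used here. Python 3.11.15, bedtools 2.31.1 and matplotlib 3.10.9 were used. Alternatives were the pseudocount, filter, scaling, measure, test, block, GC correction and libraries left out.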

Additional observations from a re-analysis of the deposited data

Results flagged for a closer look

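In 15 of 76 groups of 6 libraries (38 genes, 2 groups), 1 library stood apart from the nearest other by more of its group's range than Dixon's 95% critical value allows, in 14 genes. Chance alone gives about 1 in 20 such groups, and the genes vary together, so these are not independent. The share of such groups over all tested genes is not given here, so the count is not a result about the members. Of the 7939 genes measured in every library, 18.0% were highest in Tough 1 and 36.3% in Tender 4.

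Of these, 5 were high values in Tough 1: *NDUFA6* (63.7 FPKM, next 42.1), *NDUFA8* (164 FPKM, next 114), *NDUFAB1* (114 FPKM, next 83.2), *NDUFB4* (191 FPKM, next 159) and *NDUFV1* (103 FPKM, next 73.4). Low values in Tough 1 were *NDUFV3* (3.78 FPKM, next 24.0) and *NDUFA13* (0 FPKM, next 99.4). In Tender 4, *NDUFB3* was high (37.2 FPKM, next 18.6) and *NDUFS8* low (93.2 FPKM, next 129). *NDUFS6* was high in Tender 5 (88.5 FPKM, next 74.6), and *NDUFA13* low in Tender 2 (33.4 FPKM, next 110).

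The other values rest on libraries listed at 0. *NDUFA5* had 7.42 FPKM in Tough 3 alone of its group, and *NDUFB10* 148 FPKM in Tender 1 alone of its group. *NDUFA4* was at 0 FPKM in Tough 5 (next 167) and *NDUFB2* at 0 FPKM in Tender 6 (next 123).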

How the results depend on the processing

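In every alternative run, 0 of the tested members were called. The numbers of members at an unadjusted p of 0.05 varied, from 0 to 4 lower in Tough and from 0 to 1 higher when 1 library was left out. Without Tough 1, 4 were lower (*NDUFA9*, *NDUFA10*, *NDUFB2*, *NDUFV1*); without Tough 3, 2 were (*NDUFA5*, *NDUFB2*). Without Tender 1 (*NDUFA9* lower, *NDUFB10* higher) and without Tender 4 (*NDUFA5* lower, *NDUFB3* higher) there was 1 each way, and without Tender 5 (*NDUFA5*) or Tender 6 (*NDUFB2*) 1 was lower. There was 1 lower per exon base, with the plain sum and with the highest transcript (*NDUFV3* in each), 1 higher with 90% in the gene (*NDUFB3*), and 3 lower with array weights (*NDUFA9*, *NDUFA10*, *NDUFB2*). The *NDUFB3* transcripts had 84.1% to 88.3% of their bases in the gene in Tender 1 to 4. They had 79.9% to 86.9% in Tough 1, so *NDUFB3* was at 0 in these libraries with 90% in the gene. In Tough 2 to 6 the share was 95.5% to 100%. The animal numbers do not pair the animals (correlations of same-numbered deviations from -0.22 to 0.02); with the number as a replicate block, 2 were lower (*NDUFA5*, *NDUFB2*). Leaving out Tough 1 and Tender 4 together gave 7 lower and 0 higher (*NDUFA9*, *NDUFA10*, *NDUFA11*, *NDUFB2*, *NDUFB7*, *NDUFS3*, *NDUFV1*), with a median of -0.20 and 31 of 38 below 0, while all tested genes at that p numbered 543, against 226 with all 12 libraries. This alternative and the GC correction were chosen after seeing the data, the first because these libraries held many of the members' highest values, so it gives no independent support. Over all genes, the number at an unadjusted p of 0.05 ran from 151 (without Tender 5) to 638 (array weights), with 0 called throughout. The smallest adjusted p over all genes lay between 0.10 and 1.00 over the alternatives. The median log2 fold change of the members stayed below 0 throughout.

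Some members changed sign (log2 fold changes of Tough over Tender): with median-of-ratios scaling *NDUFA8* 0.0181, *NDUFB4* 0.0389, *NDUFB7* 0.0112, *NDUFB8* 0.0082; with quantile normalization *NDUFA3* 0.0164, *NDUFA6* 0.0384, *NDUFA8* 0.0784, *NDUFAB1* 0.0334, *NDUFB4* 0.12, *NDUFB7* 0.094, *NDUFB8* 0.10, *NDUFC2* 0.0385, *NDUFS1* 0.0321, *NDUFS8* 0.0748. Per exon base they were *NDUFA13* 0.21, *NDUFA4L2* 0.36, *NDUFA6* 0.0145, *NDUFB10* -0.19, *NDUFB11* 0.11, *NDUFB4* 0.0093, *NDUFB5* -0.0075, *NDUFS6* -0.00024, and with 90% in the gene *NDUFA13* 2.53, *NDUFAB1* 0.31, *NDUFB11* 3.81, *NDUFB4* 1.39, *NDUFB6* -1.05, *NDUFV2* 1.19. With the plain sum they were *NDUFA3* 0.00028, *NDUFA6* 0.0449, *NDUFA7* -0.0574, *NDUFAB1* 0.0031, *NDUFB11* 0.13, *NDUFB5* -0.036, *NDUFB7* 0.0042, and with the highest transcript *NDUFA6* 0.0449, *NDUFA7* -0.0574, *NDUFAB1* 0.12, *NDUFB11* 0.13, *NDUFB5* -0.036, *NDUFB7* 0.0042. With array weights they were *NDUFB1* -0.0445, *NDUFS1* 0.0459, *NDUFS6* -0.0582, with the GC correction *NDUFA8* 0.0328, *NDUFB4* 0.0447, *NDUFB7* 0.0113, *NDUFB8* 0.0237, and without both libraries *NDUFA13* 0.23, *NDUFA7* -0.0271, *NDUFB1* -0.0879, *NDUFS1* 0.0189, *NDUFS6* -0.11. With 1 library left out, the ranges of members that changed sign were *NDUFA13* -1.43 to 0.20, *NDUFB1* -0.10 to 0.0781, *NDUFB5* -0.10 to 0.13, *NDUFB6* -0.00981 to 0.10, *NDUFS6* -0.11 to 0.11, *NDUFA6* -0.18 to 0.012, *NDUFA8* -0.16 to 0.0283, *NDUFB7* -0.14 to 0.0025, *NDUFB4* -0.0648 to 0.0403, *NDUFS8* -0.18 to 0.0102, *NDUFS1* -0.18 to 0.0524, *NDUFA4L2* -0.40 to 0.0191, *NDUFB8* -0.12 to 0.0126, *NDUFC2* -0.15 to 0.0345, *NDUFB3* -0.0075 to 0.33, *NDUFAB1* -0.17 to 0.0609. With 90% in the gene, a member is at 0 wherever its transcripts have a smaller share in it. The *NDUFB11* transcript had 65.6% to 72.7% of its bases in the gene in Tender 1 to 5. It had 70.9% in Tough 2 and 71.4% in Tough 5, and above 90% in the other libraries. The value of 3.81 therefore rests on libraries set to 0 by this cut-off. Beyond this, the cause of the changes of sign was not tested. With FPKM alone, depth per gene is unknown, and the mapping of transcripts to genes limits the 8 members listed at 0 and others too, such as *NDUFV3* in Tough 1. With *NDUFV3* not counted, chosen after seeing the data, the lower-GC minus higher-GC difference of the members in Tough 1 turned to -0.16.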
